A study of Mus musculus with 32 samples.

Results

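Accessible chromatin was examined around 9 genes of the mouse Toll-like receptor family, Tlr1, Tlr2, Tlr3, Tlr4, Tlr5, Tlr6, Tlr9, Tlr11 and Tlr12. A peak region was taken as a member when its midpoint lay in the body of one of these genes, or, between genes, when the nearest end of a protein-coding gene within 50 kb was theirs. This gave 65 of the 90465 regions of the series, 18 in gene bodies and 47 between genes. The nearest gene is a label of position, and a region need not act on it. Peaks had been called by Omni-ATAC-seq, in which a transposase inserts adapters into open chromatin, in dendritic cells sorted from lymph nodes that drain the skin.

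The 32 libraries came from 5 dendritic cell types. The resident ones are cDC1 and cDC2 (6 libraries each), and the migratory ones are migDC1 (4 libraries), migDC2 (6 libraries) and DN migDC (6 libraries). All 28 of these libraries came from mice with floxed Ifngr1, which encodes a chain of the interferon-gamma receptor. In each cell type one genotype, CD11cCREneg/IFNgr1flfl, carried no Cre, and the other, CD11cCREpos/IFNgr1flfl, carried Cre driven by CD11c, a gene active in dendritic cells. Each genotype had 3 libraries per cell type, or 2 for migDC1. Another 4 migDC2 libraries came from mice labelled WT or IFNgr1-/- (2 each), the latter lacking the receptor chain in every cell. The labels do not say which libraries came from separate animals, so p-values measure the spread between these libraries, which may be technical. Whether Ifngr1 had been deleted was not checked, since peak lists do not show it.

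Toll-like receptors are sensors of microbial molecules. Tlr1, Tlr2, Tlr4, Tlr5 and Tlr6 sit at the cell surface and sense lipoproteins, lipopolysaccharide or flagellin. Tlr3, Tlr9, Tlr11 and Tlr12 sit in endosomes, where Tlr3 senses double-stranded RNA, Tlr9 senses unmethylated CpG DNA, and Tlr11 and Tlr12 sense profilin of protozoan parasites. Mouse cDC1 are known for high Tlr3 and for Tlr11 and Tlr12.

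The start-site windows of 4 of these genes are shown because the results below turn on the peaks over them. They were taken from RefSeq (GRCm38.p6, the coordinates of mm10) and run from 250 bases before to 50 bases after a start site, and the strand of each is given in brackets. Capitals mark matches, on either strand, to NF-kB (GGGANNNCC), AP-1 (TGANTCA), interferon response (GAAANNGAA), PU.1 (GAGGAA) or GAS (TTCNNNGAA, the element of interferon-gamma signalling), or to the letters TATAAA of a TATA box. The Tlr3 window is chr8:45410331-45410630 (minus strand), that of Tlr2 chr3:83841559-83841858 (minus), that of Tlr9 chr9:106222348-106222647 (plus) and that of Tlr12 chr4:128618570-128618869 (minus).
Tlr3: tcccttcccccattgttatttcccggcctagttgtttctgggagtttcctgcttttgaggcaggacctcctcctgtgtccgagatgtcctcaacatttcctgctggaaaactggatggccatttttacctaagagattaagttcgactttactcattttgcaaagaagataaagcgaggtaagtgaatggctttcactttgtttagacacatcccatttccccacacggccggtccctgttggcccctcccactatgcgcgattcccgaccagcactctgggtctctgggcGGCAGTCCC
Tlr2: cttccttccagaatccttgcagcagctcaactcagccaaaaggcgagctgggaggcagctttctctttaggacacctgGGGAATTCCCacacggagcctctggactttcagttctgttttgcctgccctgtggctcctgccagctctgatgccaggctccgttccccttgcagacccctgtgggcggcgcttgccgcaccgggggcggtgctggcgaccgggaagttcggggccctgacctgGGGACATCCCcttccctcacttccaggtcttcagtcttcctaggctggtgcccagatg
Tlr9: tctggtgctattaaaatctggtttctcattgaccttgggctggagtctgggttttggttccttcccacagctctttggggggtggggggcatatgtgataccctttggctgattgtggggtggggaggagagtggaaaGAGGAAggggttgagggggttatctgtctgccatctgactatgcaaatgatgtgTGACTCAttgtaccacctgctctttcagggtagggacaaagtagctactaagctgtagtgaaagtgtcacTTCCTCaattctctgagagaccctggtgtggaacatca
Tlr12: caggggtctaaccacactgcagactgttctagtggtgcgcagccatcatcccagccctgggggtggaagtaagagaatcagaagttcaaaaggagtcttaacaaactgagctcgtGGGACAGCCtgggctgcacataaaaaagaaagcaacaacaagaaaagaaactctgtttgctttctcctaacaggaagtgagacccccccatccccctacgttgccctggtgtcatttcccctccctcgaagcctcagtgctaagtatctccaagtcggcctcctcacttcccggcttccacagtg
The 2 stretches in capitals in the Tlr2 window read as an NF-kB match on both strands and count as 4 matches. The Tlr3 and Tlr12 windows each had 1 NF-kB match. The Tlr9 window had 1 AP-1 and 2 PU.1 matches. In all, 8 of the 9 genes had 10 windows, of which 4 held an NF-kB match, against 18.7% of 32619 windows of all genes. PU.1 letters were in 3 windows (28.2% of all windows), interferon response letters in 2 (8.53%), GAS letters in 2 (8.34%), TATAAA in 1 (13.7%) and AP-1 letters in 1 (7.85%). A match describes the letters and does not show that a factor binds.

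The deposited lists held 32705 to 75106 peaks per library, and they hold no read counts, so the depth is unknown. By median, cDC2 lists were the shortest of the floxed types (46846.5 peaks, against 64265 in cDC1). The longest list was from a DN migDC library and the shortest from an IFNgr1-/- library. Where a list lacks a peak, the site may be closed or too weak to have been called. A cDC1 Cre-negative library (replicate 2) stood apart: the median width of its peaks at called regions was 416 bp against 546 to 595 bp in the other 5 cDC1 libraries, and its peak ranks correlated at 0.88 to 0.89 with theirs. A DN migDC Cre-positive library (replicate 1) was alike, at 427 bp and 0.87 to 0.93. Library titles formed 3 series, plain numbers, letters and cell type names, and all resident libraries had plain numbers while 12 of the 16 migratory floxed libraries had letters. What these series stand for is not in the labels, so series and migration overlap, and the values within plain-numbered titles are given beside the regions named for a change in presence or rank between migratory and resident cells. Of the regions near 6 cDC1 marker genes, cDC1 libraries held 67.9 to 89.5% and cDC2 libraries 17.3 to 34.6%. At 6 cDC2 markers the cDC1 and cDC2 libraries did not separate (40.3 to 62.9% and 38.7 to 69.4%). Regions near 6 genes of mature dendritic cells were called at 81.2 to 92.8% in migDC2, 72.5 to 85.5% in DN migDC and 36.2 to 56.5% in resident cells. In migDC1 they were called at 47.8 to 69.6%, which overlapped the resident range. Other cell types were read from 6 markers each, of which those with a start-site window could be scored. No library had a start-site peak at 4 of 6 T cell genes, Cd3e, Cd3d, Cd3g and Bcl11b, but Tcf7 had one in 2 of 12 resident and 16 of 16 migratory floxed libraries, and Lck in 4 libraries. All 6 neutrophil and 4 scored epithelial and stromal genes were at 0, and so were 1 of 3 B cell, 1 of 3 monocyte and 2 of 5 plasmacytoid dendritic cell genes. Of the monocyte genes, Cx3cr1 had the peak in all 32 libraries and Ly6c2 in 26. Of the plasmacytoid dendritic cell genes, Bst2 had it in all 32 libraries, Spib in 31 and Siglech in 21. Of the B cell genes, Cd79a and Pax5 had it in 5 and 4 of 6 DN migDC libraries and in at most 2 of 6 of any other cell type. Over all regions of a list, resident against migratory libraries held 16.7 to 63.3% and 50 to 83.3% for T cells, 5.1 to 43.6% and 17.9 to 79.5% for B cells, and 37.2 to 69.8% and 34.9 to 74.4% for monocytes. The same ranges were 34.1 to 52.3% and 50 to 90.9% for plasmacytoid dendritic cells, 36.4 to 63.6% and 54.5 to 90.9% for neutrophils, and 30.2 to 67.4% and 34.9 to 81.4% for epithelial and stromal cells. A DN migDC library had the highest floxed value in each of these 6 lists but that of monocytes. The part of other cells in the results was not tested, and in sorted bulk cells a change in the mix of cells and a change in accessibility per cell cannot be told apart.

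Most of the 9 genes had at least 1 region called in every floxed library. Of the 65 regions, 17 (26.2%) were called in all 28 floxed libraries, against 25.9% of all regions, and 15 in all 32 libraries. The share in the family was thus near that of all regions. These 17 included the start-site regions of Tlr2, Tlr3, Tlr5, Tlr6, Tlr9 and Tlr11 and the region at a Tlr4 gene end. The start-site region of Tlr12 was called in 27 of 28, missing in 1 cDC2 library. That of Tlr1 was called in only 15 of 28 libraries. The number of Toll-like receptor regions called per library had medians of 44.0 in cDC1 (34 to 50), 35.5 in cDC2 (28 to 43), 40.5 in migDC1 (32 to 43), 47.0 in migDC2 (39 to 50) and 40 in DN migDC (38 to 44). The ranges overlapped between all of these.

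**Figure D1:**
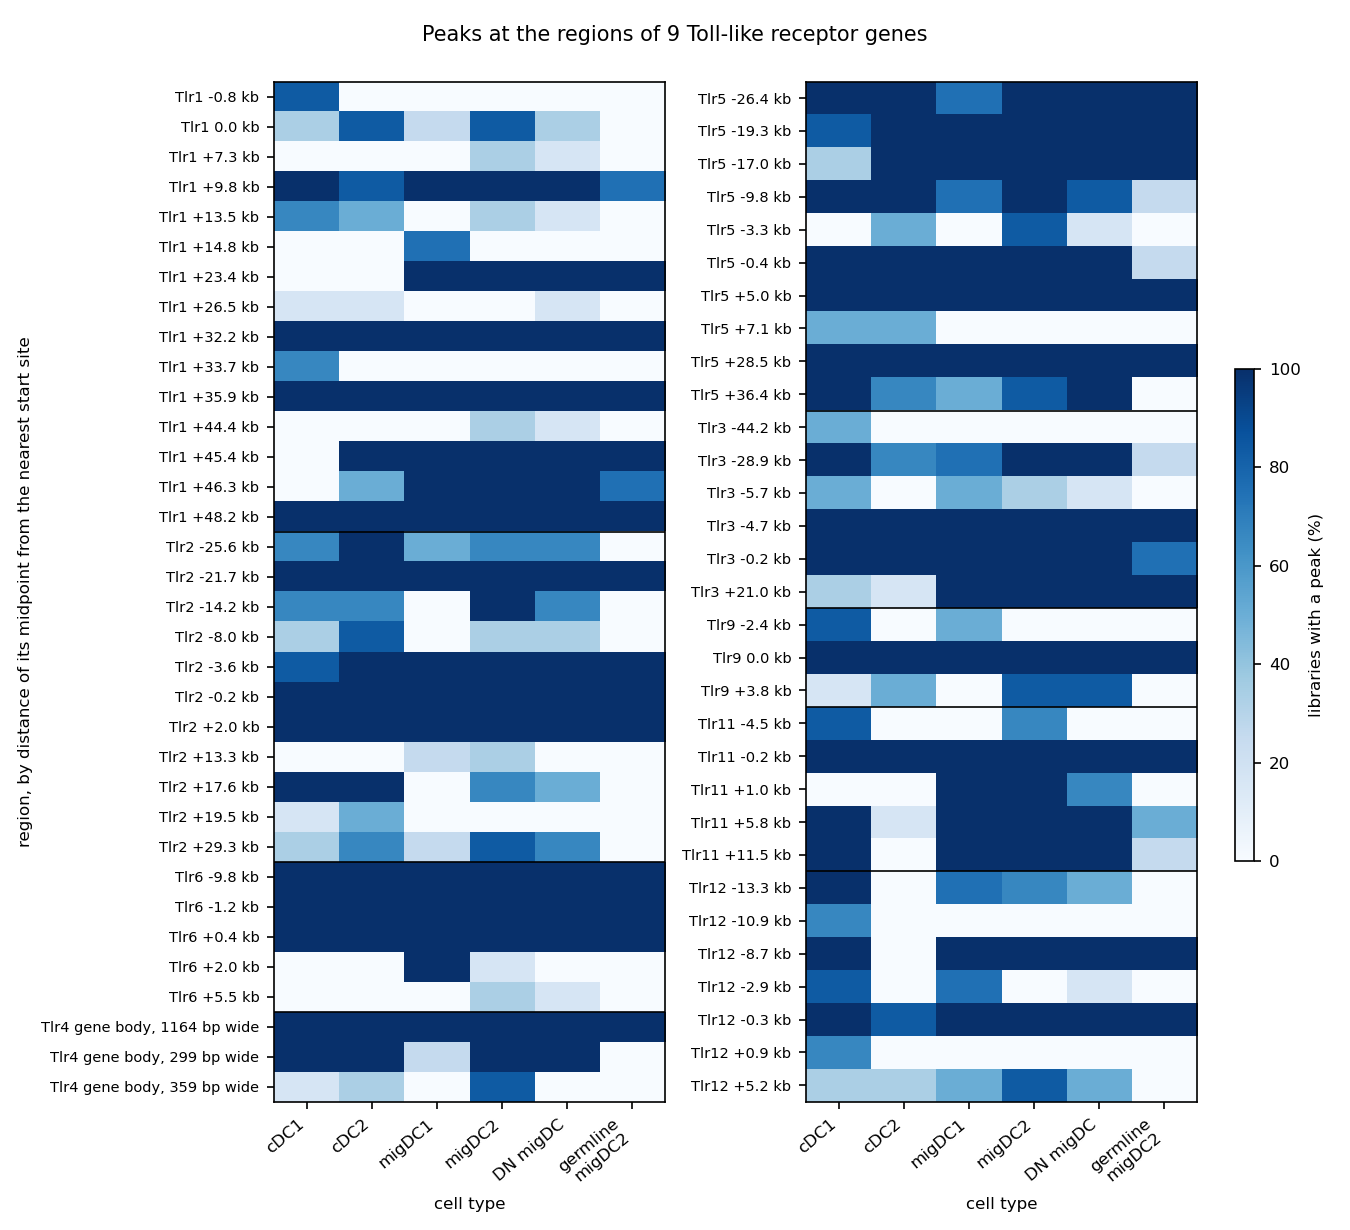
Share of libraries with a peak (colour, in %) at each of the 65 regions (rows, by gene and by distance in kb from the nearest start site, negative upstream) in each cell type (columns; 6, 6, 4, 6 and 6 floxed libraries and 4 WT or IFNgr1-/- libraries). The Tlr1 region at +23.4 kb is called in no resident and in every migratory library, and 4 of the Tlr11 and Tlr12 rows are empty or nearly so in cDC2 but full in cDC1.

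Migratory cells were first compared with resident cells by the presence of peaks, with an exact conditional test stratified by genotype and adjusted by Benjamini-Hochberg over all regions tested. Of the 65 regions, 42 were called in at least 3 and missing from at least 3 libraries and so could be tested. A peak was more frequent in migratory cells at 8 of the 42 regions and less frequent at 3. Among all 61445 regions tested, 25.0% were more frequent and 15.1% less frequent, beside 19.0% and 7.14% for the family, a gap that was not tested. With every list trimmed to the same number of peaks, the split was 9 and 8 of 23 tested (all regions, 27.4% and 32.5%). Within plain-numbered titles (4 migratory against 12 resident libraries) it was 4 and 0 of 34 (all regions, 21.3% and 2.36%), and 2 of the 11 regions remained.

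Among the surface receptors, Tlr1 had most of these regions. Tlr1 pairs with Tlr2 in sensing triacylated lipoproteins, and 3 of its regions were more frequent in migratory cells. The region chr5:64908662-64909870, 23.4 kb downstream of the start site and 15414 bp past the gene end, was called in 0 of 12 resident and 16 of 16 migratory libraries, and in all 4 WT and IFNgr1-/- libraries. Its adjusted p was 2.07e-06 by the exact test, and it was 0.00996 within plain-numbered titles. It was no weak peak: its median percentile among all peaks of a list, with 100 the strongest, was 75.4 in migDC1 (72.3 to 77.0), 78.1 in migDC2 (74.1 to 81.3) and 69.6 in DN migDC (50 to 71.6).

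A pair of neighbouring Tlr1 regions, 45.4 and 46.3 kb downstream, had peaks in migratory cells and in part in cDC2, but in no cDC1 library. The region chr5:64886914-64887617 was called in 0 of 6 cDC1, 6 of 6 cDC2 and all 16 migratory libraries. It differed between migratory and resident cells (adjusted p = 0.0106, exact test). Within plain-numbered titles this difference was also 50 percentage points of libraries. That follows from the counts above, since all resident libraries have plain numbers and every migratory library had the peak. With 4 against 12 libraries the difference did not pass there (0.433, exact test). The region also differed between cDC2 and cDC1 (adjusted p = 0.0321, exact test). The region chr5:64886086-64886638 was called in 0 of 6 cDC1, 3 of 6 cDC2 and all 16 migratory libraries (adjusted p = 0.000356, exact test, and 0.0876 within plain-numbered titles). The opposite pattern was at chr5:64934221-64934574, 0.8 kb upstream of Tlr1, called in 5 of 6 cDC1 libraries and in none of the other 27 libraries (adjusted p = 0.0247, exact test). That call was lost when any of 4 cDC1 libraries was left out (Cre-negative and Cre-positive replicates 1 and 3, adjusted p up to 0.0508, exact test). It was also lost with stricter peaks (0.114, exact test) and within plain-numbered titles (0.433, exact test). With lists of equal length no floxed library kept the peak, so it could not be tested. The Tlr1 start-site region itself, chr5:64933351-64933851, was called in 2 of 6 cDC1, 5 of 6 cDC2, 1 of 4 migDC1, 5 of 6 migDC2 and 2 of 6 DN migDC libraries, with adjusted p = 0.781 by the exact test.

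The other surface receptors had few presence differences. Tlr2, the partner of Tlr1 and Tlr6, had 1 region that was less frequent in migratory cells, chr3:83823728-83824221, 17.6 kb downstream of the start site. It was called in all 12 resident libraries, 0 of 4 migDC1, 4 of 6 migDC2 and 3 of 6 DN migDC libraries (adjusted p = 0.0114, exact test). That call was lost with stricter peaks, of at least 2 times the smallest signal (0.11, exact test). Within plain-numbered titles the difference in the share of libraries shrank from -56.25 to -25 percentage points and could not be tested. Tlr5, the flagellin receptor, had 1 such region inside the gene, chr1:182961718-182962133, called in 3 of 6 cDC1, 3 of 6 cDC2 and 0 of 16 migratory libraries (adjusted p = 0.0106, exact test). That call was lost with stricter peaks (0.114, exact test) and within plain-numbered titles (0.433, exact test). With lists of equal length no floxed library kept the peak, so it could not be tested. Tlr4, the lipopolysaccharide receptor, and Tlr6 had none among 2 tested regions each. A Tlr6 gene-body region, chr5:64957031-64957348, was called in 4 of 4 migDC1, 1 of 6 migDC2 and no other library.

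Among the endosomal receptors, Tlr11 and Tlr12 had most of their regions called in cDC1 and few in cDC2. Of their 12 regions, 8 had a peak in at least 4 of 6 cDC1 and at most 1 of 6 cDC2 libraries. Of these 8, 3 were called in all 16 migratory libraries, 3 in some (4, 4 and 10 of 16) and 2, both of Tlr12, in none. How many of all regions met the same cut was not counted, so no background stands beside the 8. By the exact test, 13.4% of all regions tested were less frequent in cDC2 than in cDC1 and 2.16% more frequent. A cDC2 library had a median of 1.0 of the 5 Tlr11 regions, against 4.0 in cDC1, 4.0 in migDC1, 5.0 in migDC2 and 4.0 in DN migDC. For the 7 Tlr12 regions the medians were 1.0 in cDC2, 6.0 in cDC1, 4.0 in migDC1, 4.0 in migDC2 and 3.0 in DN migDC. No cDC2 library reached the lowest cDC1 library for either gene, and cDC2 lists were also the shortest.

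**Figure D2:**
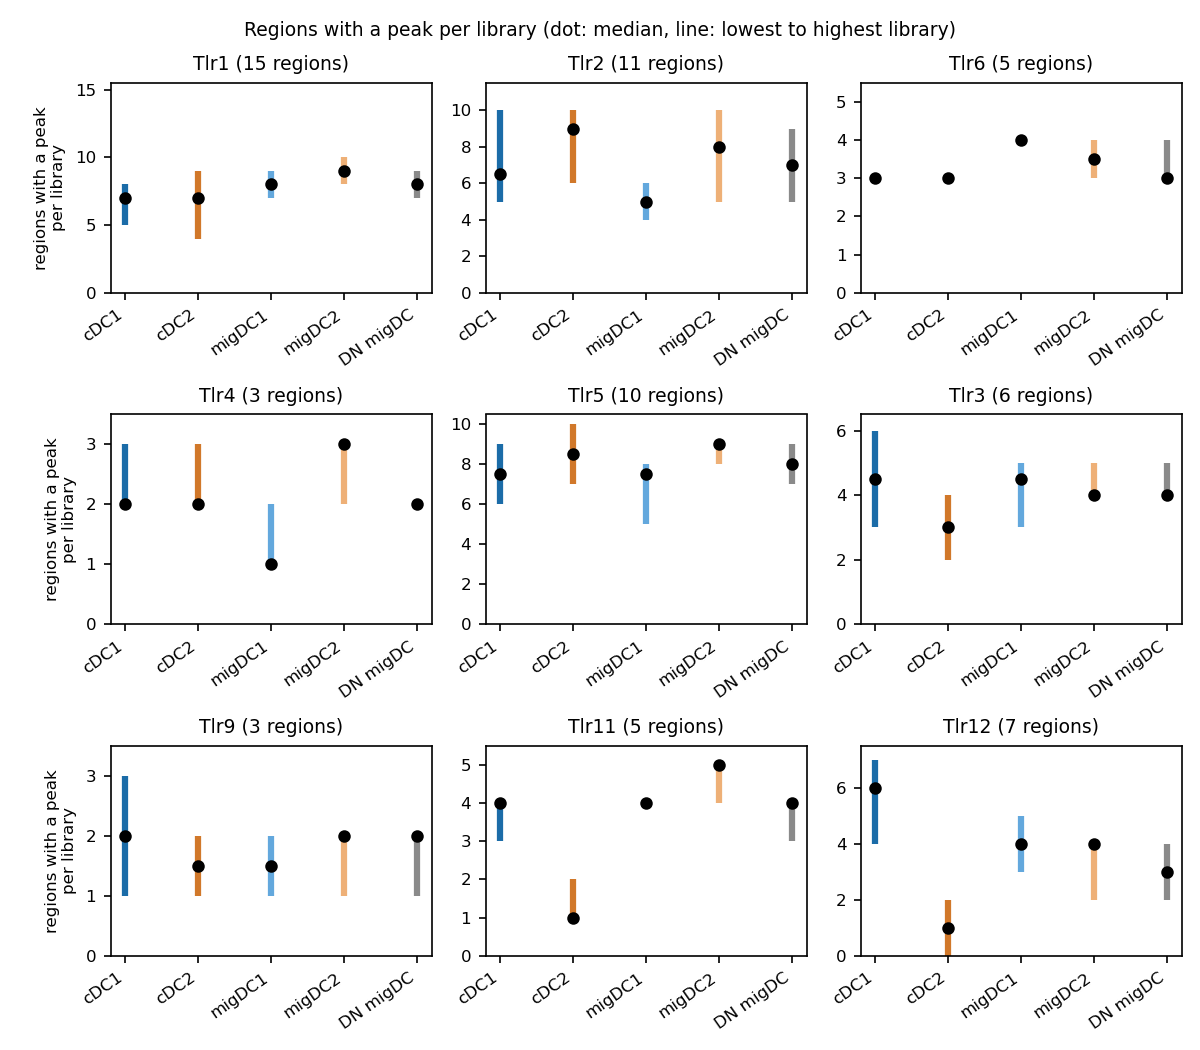
Number of regions with a peak per library for each gene (vertical axis) in each cell type (horizontal axis); the dot is the median library and the line runs from the lowest to the highest, with no line where all libraries are equal. Tlr11 and Tlr12 stand at a median of 1.0 region in cDC2 and at 3.0 to 6.0 elsewhere, while the other 7 genes overlap between resident types.

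The region chr4:128626894-128627761, 8.7 kb upstream of Tlr12, was called in 6 of 6 cDC1, 0 of 6 cDC2 and 16 of 16 migratory libraries, and in all 4 WT and IFNgr1-/- libraries. The region chr14:50369179-50369668, 11.5 kb downstream of the Tlr11 start site, had the same counts over the floxed libraries. Both differed between cDC2 and cDC1 (adjusted p = 0.0321, exact test), between migDC2 and cDC2 (0.0181, exact test) and between migratory and resident cells (0.0106, exact test). The difference between cDC2 and cDC1 was lost with stricter peaks, where its adjusted p was 0.303 near Tlr12 and 0.17 near Tlr11 (exact test). With lists of equal length it shrank from -100 to -33.33 percentage points of libraries at both, and could not be tested. Where a peak had to cover 50% of the region, it was 0.00 near Tlr12, since no resident library then had that peak. It stayed at -100 near Tlr11. With the main calls, the difference between migratory and resident cells lay within cDC2 alone, since all cDC1 libraries had both peaks. With stricter peaks or equal lists, some cDC1 libraries lacked them too. The difference between migratory and resident cells then grew from 50 to 75 and 83.33 points near Tlr12, and to 66.67 and 70.83 near Tlr11. Where a peak had to cover 50% of the region, that difference was 93.75 points near Tlr12 and 50 near Tlr11. Within plain-numbered titles the main calls gave 50 points between migratory and resident cells at both, which the counts above fix. This did not pass (0.433, exact test). The difference between migDC2 and cDC2 could not be tested there, with 2 migDC2 libraries. The peak near Tlr12 was weaker in cDC1 than in migratory cells: its percentile in the list was 6.1 to 45.8 (median 23.8) in cDC1 and 64.0 to 79.7 over migDC1, migDC2 and DN migDC, with no overlap.

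A second Tlr12 region ran the other way. The region chr4:128631552-128632326, 13.3 kb upstream, had a peak in all 6 cDC1 but in 0 of 6 cDC2 libraries (adjusted p = 0.0321, exact test) and in 10 of 16 migratory libraries. Its percentile was 48.7 to 72.1 in cDC1 and 2.8 to 31.3 where called in migratory cells. At the Tlr12 start site, whose sequence is shown above, the percentile was 63.7 to 82.5 in cDC1, 14.9 to 56.7 in the 5 cDC2 libraries that had the peak and 70.4 to 87.1 in migratory cells.

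A further 2 Tlr11 regions passed the test between migratory and resident cells. The region chr14:50358693-50359116, inside the gene 1.0 kb past the start site, was called in 0 of 12 resident libraries, 4 of 4 migDC1, 6 of 6 migDC2 and 4 of 6 DN migDC libraries, and in none of the 4 WT and IFNgr1-/- libraries (adjusted p = 0.000103, exact test, and 0.0408 within plain-numbered titles). The region at the gene end, chr14:50363527-50363959, was called in 6 of 6 cDC1, 1 of 6 cDC2 and all 16 migratory libraries (adjusted p = 0.0247, exact test). That call was lost with lists of equal length (0.743, exact test), where a peak had to cover 50% of the region (0.113) and within plain-numbered titles (0.433). The Tlr11 start-site region was called in all 32 libraries.

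Tlr3 had 1 region that was more frequent in migratory cells, chr8:45389052-45389734, 21 kb downstream of the start site and 6272 bp past the gene end. It was called in 2 of 6 cDC1, 1 of 6 cDC2 and all 16 migratory libraries (adjusted p = 0.000356, exact test, and 0.0876 within plain-numbered titles). In the 3 resident libraries the peak was among the weakest of its list, at percentiles of 2.2 to 7.7, against 24.7 to 72.5 in migratory cells. Tlr9 had no region past the threshold among 2 tested.

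Between the resident types, a peak was more frequent in cDC2 at 1 of 28 tested regions and less frequent at 3 (all regions, 2.16% and 13.4%). These were the 4 regions of Tlr1, Tlr11 and Tlr12 given above. With lists of equal length the split was 4 and 3 of 14 (all regions, 20.7% and 25.6%). The count rose to 11 of 27 without the cDC1 Cre-negative replicate 2 library. Over all regions, 1505 were then more and 10576 less frequent of 29062, against 677 and 4202 of 31371 with every library. Without the cDC1 Cre-positive replicate 2 library the count was 12 of 28, and over all regions 1371 and 11187 of 30177. Between migDC2 and cDC2, 6 of 19 regions were more frequent in migDC2 and 0 less frequent (all regions, 37.2% and 4.02%). The 6 were 3 of Tlr11 and 1 each of Tlr1, Tlr3 and Tlr12. With equal lists it was 5 and 4 of 14 (31.7% and 23.8%). Within plain-numbered titles (2 against 6 libraries) 0 of 11 passed, and so did 0 of all 11842 regions. Between migDC1 and cDC1, 5 of 25 were more frequent in migDC1 and 1 less frequent (18.5% and 16.8%). Of these 6, 3 were of Tlr1 and 1 each of Tlr2, Tlr6 and Tlr11. All 6 were lost when any 1 of the 4 migDC1 libraries was left out (adjusted p up to 0.0593, exact test). With 3 against 6 libraries 0 of all regions passed, so that loss followed from the number of libraries and tells nothing about these 6. Among the migratory types no Toll-like receptor region differed by the exact test: 0 of 18 between migDC1 and migDC2 (all regions 0%, 4 with an unadjusted p under 0.05) and 0 of 15 between DN migDC and migDC2 (all regions 0%, 1 with an unadjusted p under 0.05). The smallest p that 4 against 6 libraries allow is 0.01, which became 0.0594 after adjustment. That 0% between migDC1 and migDC2 did not hold with lists of equal length, where 2025 of all 13487 regions were more frequent in migDC1 and 1509 (11.2%) less frequent. Of the Toll-like receptor regions, 0 of 5 passed there.

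The strength of a peak was compared by its rank. The deposited signal was turned into a percentile among the 23390 regions called in all 28 floxed libraries, put on the logit scale and compared with limma, adjusted over those regions. Of the 17 Toll-like receptor regions in this set, 5 ranked higher and 6 lower in migratory than in resident cells, against 30.4% and 37.2% of all regions. Within plain-numbered titles 2 ranked higher and 4 lower (all regions, 20.8% and 25.2%), and 6 of the 11 remained. A rank is relative to other peaks of the same library and does not measure the absolute opening of a site.

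Tlr3 showed the widest spread between cell types. At its start-site region, chr8:45409615-45411480, whose sequence is shown above, the percentile in cDC1 was 80.5, 43.8 and 84.3 in the Cre-negative and 76.3, 79.7 and 84.0 in the Cre-positive libraries. The 43.8 is from the cDC1 library that stood apart. In cDC2 it was 2.8 to 8.8 (median 7.2), in migDC2 9.4 to 11.0 (9.7) and in DN migDC 3.0 to 10.7 (7.1). The 4 migDC1 libraries lay between, at 18.9 and 25.1 (Cre-negative) and 17 and 33.3 (Cre-positive). Neither cDC1 nor migDC1 overlapped any other type, while cDC2, migDC2 and DN migDC lay close together. The difference between cDC2 and cDC1 was -3.92 ± 0.29 (SE) on the logit scale (adjusted p = 2.42e-09, limma), and -4.22 without the library that stood apart. Averaged over types, migratory cells were lower than resident cells by -1.25 ± 0.20 (adjusted p = 9.86e-06, limma). Within plain-numbered titles, which hold no migDC1 library, it was -1.51. By lineage, migDC1 was below cDC1 by -2.38 ± 0.33 (adjusted p = 3.47e-06, limma). In the cDC2 lineage, migDC2 was not lower than cDC2, at 0.55 ± 0.29 (adjusted p = 0.123, limma).

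The width of the same peak had its medians in the same order. It was 1569 to 2317 bp in 5 cDC1 libraries and 624 bp in the one that stood apart, 315 to 614 bp in cDC2, 668 to 1067 bp in migDC1, 657 to 954 bp in migDC2 and 307 to 1071 bp in DN migDC. In the WT and IFNgr1-/- migDC2 libraries the peak was called in 2 of 2 and 1 of 2.

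A second Tlr3 region, chr8:45414527-45415720, 4.7 kb upstream, fell stepwise over the types. Its percentile was 63.5 to 75.9 (median 71.9) in cDC1, 42.0 to 52.3 (48.2) in cDC2, 30.2, 36.1, 35.6 and 27.0 in the 4 migDC1 libraries, 19.8 to 24.7 (23.7) in migDC2 and 8.7 to 22.1 (21.5) in DN migDC. The migDC2 and DN migDC ranges overlapped and the others did not. Migratory cells ranked lower than resident cells by -1.58 ± 0.09 (adjusted p = 6.46e-12, limma), cDC2 lower than cDC1 by -0.99 ± 0.14 (adjusted p = 8.48e-06, limma), and the first held within plain-numbered titles (-1.79). The peak was also narrower in migratory cells, by -0.61 ± 0.08 in log2 width (adjusted p = 6.36e-06, limma).

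**Figure D3:**
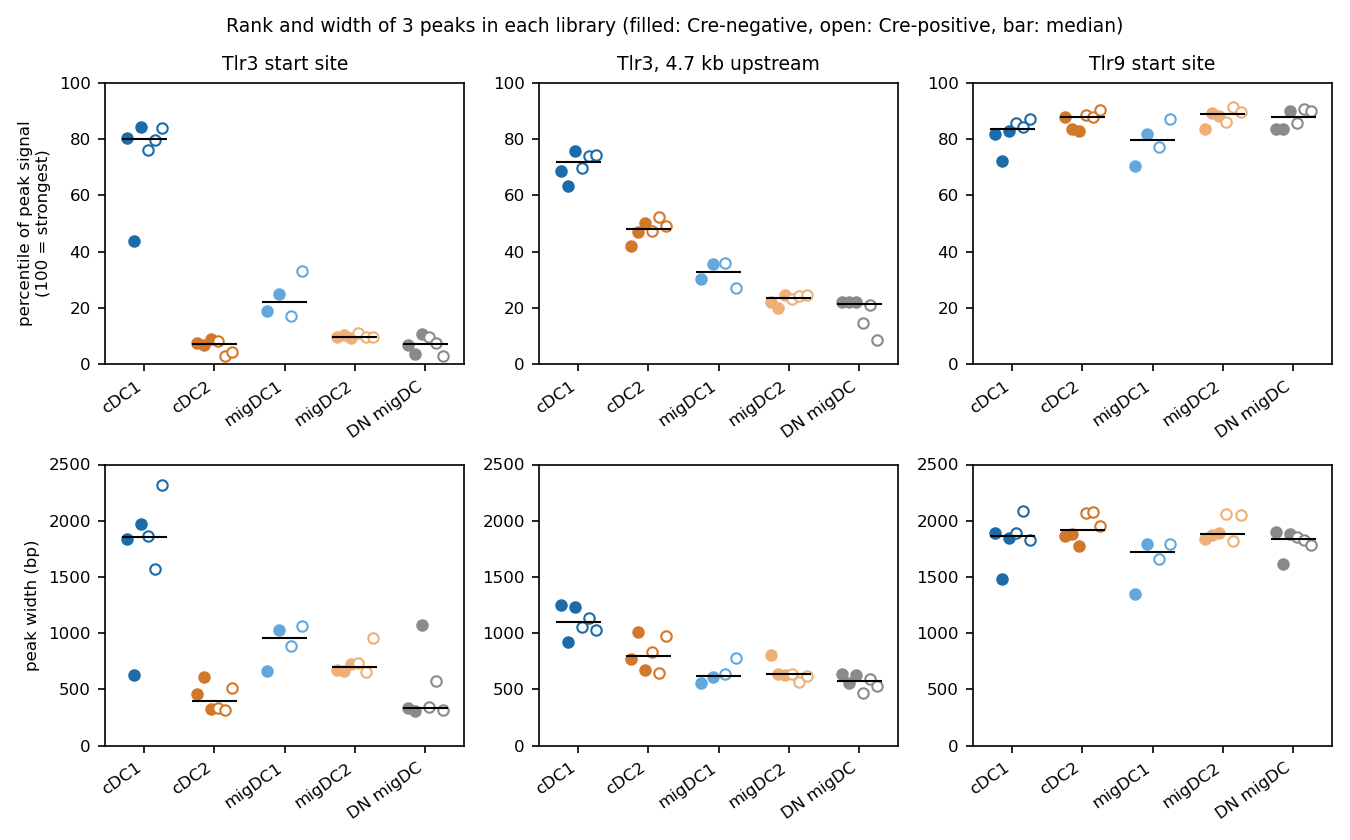
Percentile of the peak signal among the shared regions (upper row, 100 is the strongest) and peak width in bp (lower row) in every floxed library, by cell type (horizontal axis); filled points are Cre-negative, open points Cre-positive, and the bar is the median. The Tlr3 start site stands at a median of 80.1 in cDC1 and at 7.1 to 22.0 elsewhere, while Tlr9 lies between 70.5 and 91.4 in all libraries.

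The other endosomal receptors varied less. The Tlr9 start-site region, chr9:106221563-106223658, ranked at 72.3 to 87.3 in cDC1, 83.0 to 90.5 in cDC2, 70.5, 77.4, 81.9 and 87.1 in migDC1, 83.8 to 91.4 in migDC2 and 83.7 to 90.8 in DN migDC, so all types overlapped. It was lower in migDC1 than in migDC2 by -0.64 ± 0.18 (adjusted p = 0.0139, limma), a call lost without either migDC1 replicate 1 library (adjusted p up to 0.112). The Tlr11 start-site region, chr14:50357139-50358295, ranked lower in cDC2 (19.9 to 26.6) than in cDC1 (16.5 to 55.4, median 46.7), by -0.88 ± 0.24 (adjusted p = 0.00627, limma); the groups overlapped only through the cDC1 library that stood apart, at 16.5, and without it the difference was -1.17.

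Of the surface receptors, Tlr2 had a start-site region that was strong everywhere and stronger still in migratory cells. Its percentile at chr3:83840773-83842865, whose window carries the 4 NF-kB matches, was 73.6 to 82.7 (median 79.7) in cDC1, 79.7 to 82.2 (81.0) in cDC2, 90.1, 90.1, 91.1 and 94.4 in migDC1, 85.9 to 90.9 (88.4) in migDC2 and 79.7 to 84.9 (83.7) in DN migDC. Neither migDC1 nor migDC2 overlapped a resident type, whereas DN migDC overlapped both resident types. Migratory cells ranked higher by 0.61 ± 0.08 (adjusted p = 5.62e-07, limma), and by 0.34 within plain-numbered titles.

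Other Tlr2 regions did not follow the start site. The gene-body region chr3:83839139-83840155 ranked lower in migratory cells by -0.45 ± 0.10 (adjusted p = 0.000444, limma), and by -0.80 within plain-numbered titles. The types were not alike. Its percentile was 34.7 to 40.1 in cDC1, 44.0 to 59.5 in cDC2, 35.8 to 42.2 in migDC1, 38.1 to 45.7 in migDC2 and 12.8 to 30.2 in DN migDC. The difference was 0.04 ± 0.17 for migDC1 against cDC1 (adjusted p = 0.85, limma) and -0.38 ± 0.15 for migDC2 against cDC2 (adjusted p = 0.0396, limma). It was lower in DN migDC than in migDC2, by -0.92 ± 0.15 (adjusted p = 0.000727, limma). The region chr3:83862716-83863912, 21.7 kb upstream, ranked higher in migratory cells by 0.43 ± 0.10 (adjusted p = 0.000572, limma), but the difference was -0.04 within plain-numbered titles (adjusted p = 0.787, limma).

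At Tlr5, the gene-body region chr1:182958963-182960571 ranked at 29.8 to 43.8 in cDC1, 38.3 to 55.8 in cDC2 and 40.4 to 74.5 in migratory cells, a difference of 0.64 ± 0.13 between migratory and resident cells (adjusted p = 0.000282, limma). It was 0.61 within plain-numbered titles (adjusted p = 0.00842, limma) and did not pass with title series as a covariate (0.41, adjusted p = 0.115, limma). The Tlr5 start-site region was among the weakest of the set, at 0.9 to 3.9 in cDC1 and 2.9 to 35.8 in cDC2. At Tlr1, the region 35.9 kb downstream ranked higher in migratory cells (0.70 ± 0.14, adjusted p = 0.000172, limma) and that 32.2 kb downstream lower (-0.93 ± 0.13, adjusted p = 3.99e-06, limma). Within plain-numbered titles the first did not pass (0.37, adjusted p = 0.274, limma), and the other was -1.21. The Tlr4 region chr4:66827155-66828318 stayed within 41.4 to 58.7 in all 28 libraries. It holds the lower-coordinate end of the gene, which had no start-site window to tell its start from its other end. Its migratory difference of -0.16 ± 0.06 had adjusted p = 0.0268 by limma, and this call was lost without cDC2 Cre-negative replicate 1, cDC2 Cre-positive replicate 2, cDC1 Cre-positive replicate 1 or either migDC1 replicate 1 library (adjusted p up to 0.0746), and within plain-numbered titles (0.0513). At the Tlr6 start site, 1 peak of about 3.1 kb spans 2 regions in some libraries, so its percentiles (0.2 to 86.0 in cDC1) mix 2 peaks.

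**Figure D4:**
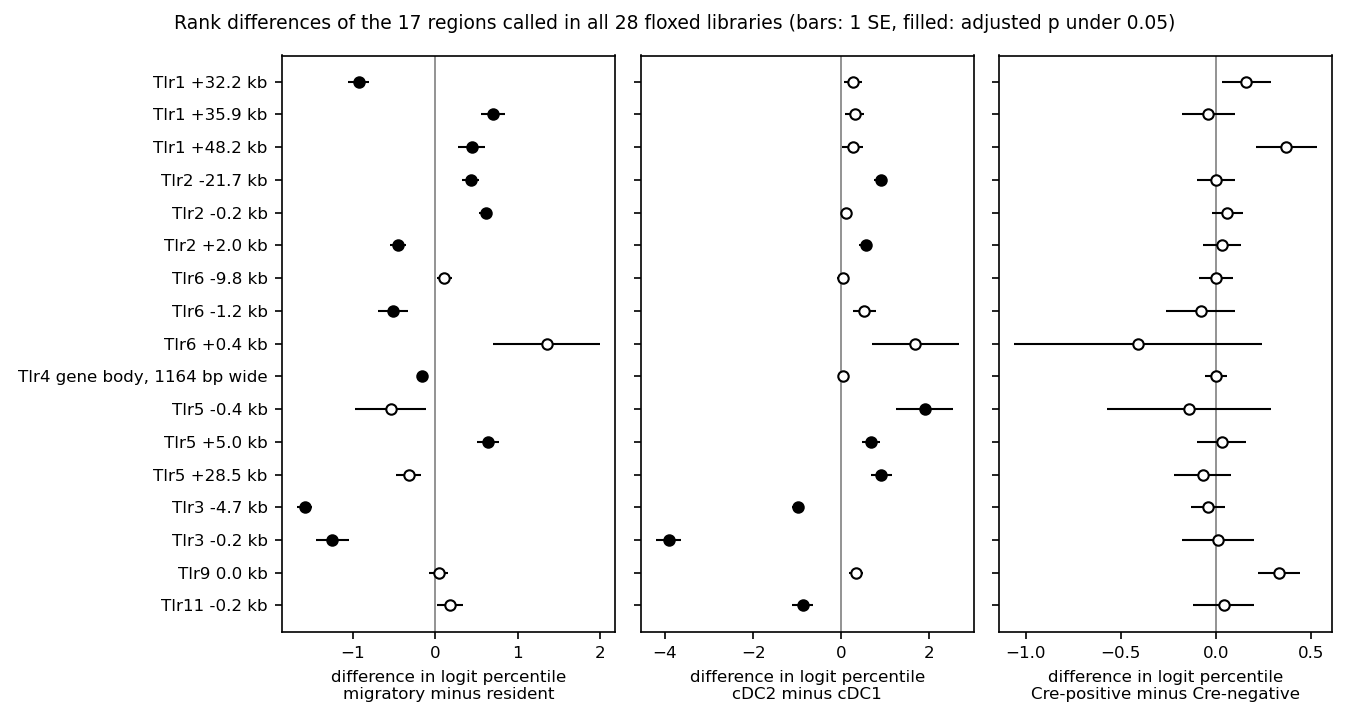
Difference in logit percentile (horizontal axis) at the 17 regions called in all 28 floxed libraries (rows, by distance in kb from the nearest start site, negative upstream), for migratory minus resident, cDC2 minus cDC1 and Cre-positive minus Cre-negative; bars are 1 SE and filled points have an adjusted p under 0.05 by limma. The Tlr3 regions lie farthest to the left in the first 2 panels, and no point is filled in the third.

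Between cDC2 and cDC1, 5 of 17 regions ranked higher in cDC2 and 3 lower (all regions, 17.7% and 17.5%). The 5 were 3 of Tlr5 and 2 of Tlr2, and the 3 were the 2 Tlr3 regions and the Tlr11 start site. The call at the Tlr5 start site was lost without cDC2 Cre-positive 1, cDC2 Cre-negative 1 or 2, or cDC1 Cre-negative 1 (adjusted p up to 0.0778, limma). Between migDC1 and migDC2, 3 ranked higher and 2 lower (13.5% and 11.5%): the 2 Tlr3 regions and the Tlr2 start site were higher in migDC1, the Tlr5 and Tlr9 start sites lower. None of these 5 calls held in every leave-one-out fit, and 0 of 17 passed without the migDC1 Cre-negative replicate 1 library. Between DN migDC and migDC2, 0 ranked higher and 2 lower, both of Tlr2 (3.66% and 4.02%). Of these, the start-site call was lost when any of 7 libraries was left out, migDC2 Cre-negative 1 and 2, migDC2 Cre-positive 2 and 3, DN migDC Cre-negative 1 and 2 and DN migDC Cre-positive 1 (adjusted p up to 0.0936, limma). Peak width differed between migratory and resident cells at 3 regions, all narrower in migratory cells (all regions, 10.3% wider and 25.0% narrower). Those were the Tlr3 region 4.7 kb upstream, the Tlr2 gene-body region and the Tlr1 region 32.2 kb downstream. The last was lost without cDC1 Cre-negative 1 or 3, cDC1 Cre-positive 3 or migDC1 Cre-negative 1 (adjusted p up to 0.076, limma). With title series as a covariate, the calls at Tlr2 (0.0933) and Tlr1 (0.418) were lost. Without the narrow-peaked cDC1 library the width count was 8, with no share over all regions given beside it. An interaction, added with the results in view, tested whether the rank difference between migratory and resident types differed between the cDC1 and cDC2 lineages. Of 17 regions, 2 passed (all regions, 19.5%), at Tlr3 and Tlr2.

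Between the Cre genotypes no difference was detectable at the family. By the exact test stratified by cell type, 0 of 42 regions differed between Cre-positive and Cre-negative libraries (all regions 0%), with a smallest Toll-like receptor p of 0.1 and 0 at an unadjusted p under 0.05. By limma, 0 of 17 ranks (all regions 0.0684%) and 0 of 17 widths (0.00855%) differed; 2 ranks and 1 width had an unadjusted p under 0.05. At the Tlr3 start site the difference was 0.01 ± 0.19 on the logit scale, against the -3.92 between cDC2 and cDC1. The largest rank estimates were 0.37 ± 0.16 at the Tlr1 region 48.2 kb downstream (adjusted p = 0.875, limma) and, with the widest error, -0.41 ± 0.65 at the Tlr6 start site (adjusted p = 0.992, limma).

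Within single cell types, a peak in every library of one genotype and in none of the other was seen at 1 of 25 varying regions in cDC1 (all regions 0.649%) and 1 of 15 in migDC1 (7.29%). Both were weak regions upstream of Tlr3: chr8:45454515-45454721 in the 3 Cre-negative cDC1 libraries and chr8:45415891-45416286 in the 2 Cre-positive migDC1 libraries. In cDC2 (0.210%), migDC2 (1.03%) and DN migDC (0.622%) there were 0 of 19 each, and 0 of 8 between WT and IFNgr1-/- migDC2 (4.45%). With 2 or 3 libraries a genotype these counts carry no test.

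The partners and downstream molecules of the receptors were counted from a list of 39 genes, which had 315 regions, 189 of them tested between migratory and resident cells by the exact test. A peak was more frequent in migratory cells at 54 and less frequent at 29, beside the 25.0% and 15.1% over all regions. Kinases and ubiquitin ligases had 21 more and 6 less frequent of 70. Ikbkb, a kinase that releases NF-kB, had 7 more and 0 less of 11, Traf3, a ubiquitin ligase, 6 and 0 of 10, and Tab2, which binds the kinase TAK1, 3 and 1 of 11. Adaptors had 2 more and 13 less of 31, mostly through 1 gene: Pik3ap1, an adaptor to PI3-kinase, gave 0 and 10 of 22. Ticam2 and Ticam1, adaptors of the interferon branch, had 1 and 2 of 5 and 0 and 1 of 1. The adaptor Tirap had 1 more and 0 less of 1.

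Inhibitors had 11 more and 4 less frequent of 27. Tnfaip3, which encodes the NF-kB inhibitor A20, had 8 and 2 of 15, and Irak3, an inhibitory kinase homologue, 3 and 2 of 8. Co-receptors had 12 more and 2 less of 30, among them Ly86 with 5 and 1 of 7, Cd180 with 4 and 0 of 7 and Ly96, the partner of Tlr4, with 2 and 0 of 6. Transcription factors had 6 more and 4 less of 24, with Nfkb1 at 6 and 2 of 20 and Irf5 at 0 and 2 of 2. Chaperones had 2 more and 0 less of 7, both of Cnpy3, which helps the receptors fold.

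The genes whose number of regions with a peak varied most like that of a member over the 28 floxed libraries were named by Pearson's r among 9518 genes with at least 3 regions. Tlr12 was most like Fnbp1 and Il6 (both 0.93), and Tlr11 most like Nup93 (0.92) and Nek11 (0.91). Tlr3 was closest to Rmdn2 (0.86) and Ltf (0.84), Tlr2 to Dstyk (0.87) and Cux1 (0.86), and Tlr1 to Lpp (0.83) and Btd (0.82). Tlr4 was closest to Cast (0.83) and Pacs2 (0.80), Tlr5 to Ada (0.80) and Lilrb4a (0.78), Tlr6 to Apln (0.78) and Prdx3 (0.75), and Tlr9 to Immp2l (0.74) and Atp2a1 (0.71). The libraries share cell type and list length, which both genes of a pair follow, so these values are descriptions.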

How the data were processed

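Omni-ATAC-seq was run on 32 libraries. The submitters' processing notes name Bowtie2, deepTools, Genrich and build mm10. With versions, settings and any shift of read ends not given in the sources used here, their effect on peak positions could not be judged. The authors deposited 1 narrowPeak list per library, so replicates were not pooled. The signal column, as deposited, starts at 200 in each list and served here for ranks within that list. The −log10 p column, as deposited, ordered peaks of equal signal.

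Peaks of 3 or more libraries had to share 100 bp to form a region, which was called where a peak overlapped 50% of the region or of the peak, and assigned with the RefSeq table of GRCm38.p6. Presence was tested by an exact stratified conditional test on regions called in and missing from at least 3 libraries. Logit rank and log2 width were fitted with limma 3.58.1 (R 4.3.3) on 10 group means of the floxed libraries. Both used Benjamini-Hochberg adjustment at 0.05 over all regions and were tested on simulated data. The members and gene lists were chosen with earlier results of these data known. Named regions are, per gene, the start-site or gene-end region, up to 3 with the smallest p between migratory and resident cells and the one with the smallest p in a cell type pair. Named list genes are up to 3 per role with the most passing regions, and Tirap, which tied with Ticam1. The Tlr1 region 0.8 kb upstream and other regions named for rank, width or genotype were chosen after their values were seen. Alternatives changed list length, thresholds, overlap, assignment and title series, and left out each library.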

Additional observations from a re-analysis of the deposited data

Results flagged for a closer look

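At 2 regions the rank difference between the migratory and the resident type was unlike in the 2 lineages, by an interaction in limma over the 23390 shared regions. At the Tlr3 start site the interaction was 2.93 on the logit scale (adjusted p = 9.31e-05): the percentile was lower in migDC1 than in cDC1 by -2.38 ± 0.33 (SE), with no overlap of 4 against 6 libraries, while migDC2 differed from cDC2 by 0.55 ± 0.29 (adjusted p = 0.123, limma). At the Tlr2 region 21.7 kb upstream it was -1.14 (adjusted p = 0.00104, limma): migDC1 ranked above cDC1 by 1.18 ± 0.16, at 72.8 to 78.0 against 41.8 to 53.3, while migDC2 differed from cDC2 by 0.04 ± 0.15. All migDC1 libraries have lettered titles and all resident libraries plain-numbered ones, so title series and migration cannot be told apart in the cDC1 lineage.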

How the results depend on the processing

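The lists hold no counts, so depth is unknown and a missing peak is no proof of closed chromatin. No paired analysis was possible because the labels give no replicate numbers shared between groups. Presence counts of migratory against resident cells, 11, were 17 with equal lists, 7 within 10 kb of a gene, 2 in gene bodies only and 4 within plain-numbered titles, and 10 to 16 with a library left out. Those of cDC2 against cDC1, 4, were 2 with stricter peaks, 7 with equal lists, 2 within 10 kb, 0 in gene bodies and 4 to 12 with a library left out. Those of migDC1 against cDC1, 6, were 3 with stricter peaks, 2 within 10 kb, 2 in gene bodies and 0 to 8 with a library left out. Without any 1 migDC1 library, 0 of all regions of the series passed. Presence counts of migDC2 against cDC2, 6, were 1 in gene bodies and 0 within plain-numbered titles, where 0 of all regions passed. Gene bodies and short distances leave fewer regions to test. Rank counts of migratory against resident cells, 11, were 6 within plain-numbered titles and 6 with title series as a covariate. Those of migDC1 against migDC2, 5, were 3 without the logit, 3 over regions called in all 32 libraries, 2 within lettered titles and 0 to 6 with a library left out. Those of DN migDC against migDC2, 2, were 1 within plain-numbered and 1 within lettered titles and 1 to 3 with a library left out. Width counts of migratory against resident cells, 3, were 1 with title series as a covariate and 2 to 8 with a library left out. The rank difference at the Tlr2 region 21.7 kb upstream turned to -0.04 within plain-numbered titles. The Cre comparison stayed at 0 under all alternatives run. Presence of DN migDC against migDC2 within plain-numbered titles had no region to test. Where a count moved and no construction is named, the cause was not tested.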
